A study of Mus musculus with 2 samples.

Results

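The enzymes and transporters of glycolysis and of the pentose phosphate pathway form a set of 35 genes, chosen by name, and were examined in the tibia of telomerase-deficient and control mice. Members were all probes whose symbol in the platform's annotation was on that list of names. Measured values were not used in this matching, but the list was chosen with earlier results of these arrays known. Of the 35 genes, 31 had a probe with their symbol, 57 probes in all, and 25 were detected, out of 9953 genes detected among 19057 gene symbols on the array. Detection means a p under 0.01, on either array, in the platform's own comparison of a probe with negative controls. Hk2, Gpi1, Eno1 and G6pdx had no probe under their symbol and were not analysed here. Slc16a1, Slc16a3, Eno2, Ldhb, Pgd and Pfkfb3 had probes that were not above background on either array, 8 in all, with intensities from 114 to 139 in Terc+/+ and 122 to 159 in Terc-/-. The nearest to detection was Pfkfb3, at 139 and 159 with detection p of 0.042 and 0.031.

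RNA came from whole tibia of female C57BL/6 mice aged 22 weeks, untreated. The control group was Terc+/+. The other group was Terc-/-, which lacks the RNA component of telomerase and is labelled G3 in the series title. Each group was 1 Illumina bead array hybridised with RNA pooled from 3 mice, so the spread between animals was not measured, no difference has a replicate check, and no p-value across genes was computed. Precision is limited by having 2 arrays.

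Glycolysis splits glucose into pyruvate in the cytosol and yields ATP without oxygen, and the pentose phosphate pathway diverts glucose 6-phosphate to make NADPH and ribose. Several steps have isoenzymes from separate genes, with different forms in red cells, muscle and leukocytes. Mature red cells, which have no mitochondria, and neutrophils, which have few, live largely on glycolysis. Fast muscle fibres hold very large amounts of glycolytic enzymes. A tibia with its marrow and attached soft tissue contains all of these cells, and in such bulk RNA fewer cells of a type and less RNA per cell cannot be told apart.

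The arrays had median intensities of 127 for Terc+/+ and 138 for Terc-/-, with 16640 and 15363 detected probes. Bone, red-cell and neutrophil markers were present in both pools, as whole tibia should show. Over all detected genes, 7.78% were at least 2-fold higher in Terc-/- and 10.4% at least 2-fold lower. Of 14 neutrophil markers all were detected, 7 were at least 2-fold higher in Terc-/- and none was lower by that much. Their summed non-normalized intensity was 257943 in Terc+/+ and 372585 in Terc-/-, against 14076912 and 15584325 over all detected genes. Such sums, here and below, include background and are led by the brightest probes. Mpo and Ltf, both bright, had log2 differences (Terc-/- minus Terc+/+) of 0.17 and -0.23. Dimmer probes of these genes reached 1.99 and 0.86. Of 14 erythroid markers 11 were detected, all at least 2-fold lower, with sums of 105087 and 18823, and only Epb42 had a probe but no signal above background. Of 14 skeletal muscle markers 13 were detected, 5 of them at least 2-fold lower, with sums of 181385 and 101379. Of 10 bone markers 8 were detected, all at least 2-fold lower, with sums of 60275 and 14278, and Dmp1 was not above background. The part of these shifts in the results below was not tested.

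The genes of the pathway did not move as a block. Among the 25 detected members, 6 were at least 2-fold higher in Terc-/- (Slc2a1, Hk3, Pgk1, Pgam1, Pkm and Pfkfb4), against 7.78% of all detected genes, and 4 were at least 2-fold lower by their normalized values (Pfkm, Pgam2, Pklr and Bpgm), against 10.4%. Pklr and Bpgm were above background in Terc+/+ only, so their folds are bounds. Counted by bounds, 2 members were at least 2-fold lower, against 8.81% of all genes, and 6 higher, against 6.86%. The median log2 difference, always Terc-/- minus Terc+/+, was 0.32 over the detected members and 0.01 over all detected genes. Of the 25, 19 had values above 0 and 6 below, against 5054 above and 4891 below among all 9953 detected genes.

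**Figure D1:**
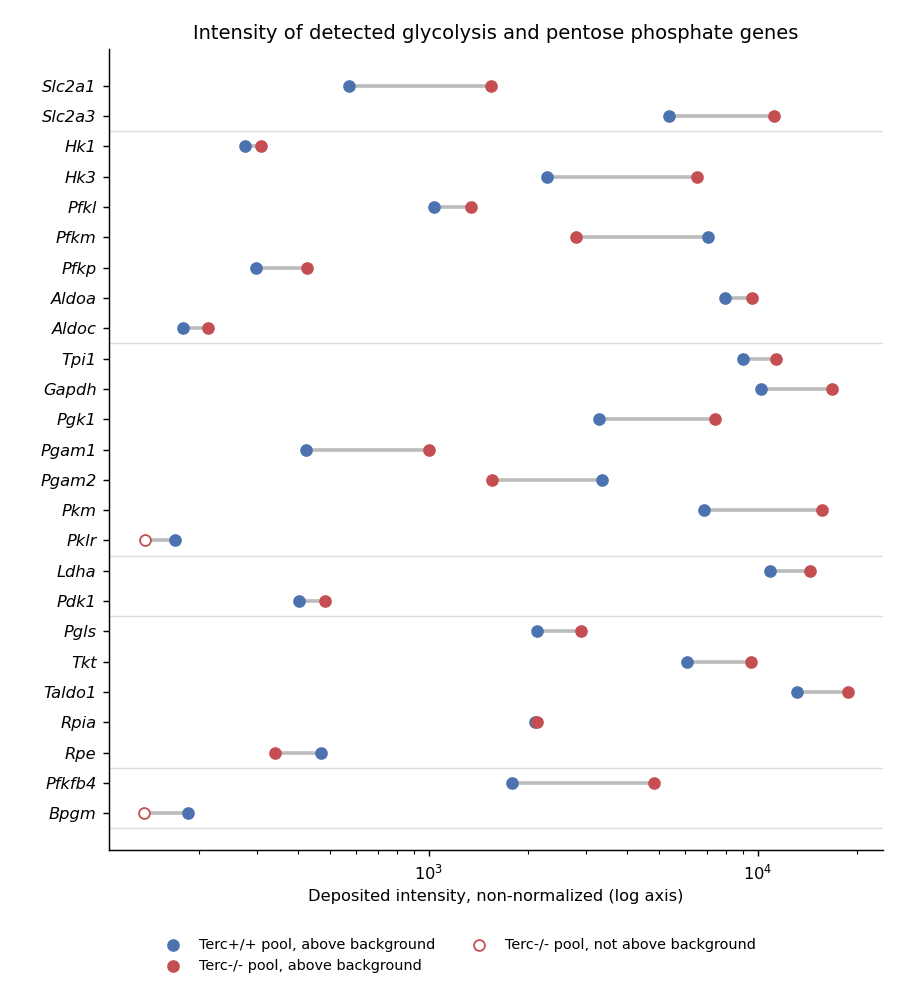
Deposited intensity of the probe that stands for each of the 25 detected members, on a log axis, in the Terc+/+ pool (blue) and the Terc-/- pool (red), with 1 array each. Open circles were not above background. Levels of different probes are not comparable, and only the length of each line is read: Slc2a1, Hk3, Pgam1 and Pfkfb4 lie to the right in Terc-/-, and Pfkm and Pgam2 to the left.

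Glucose enters cells through facilitative transporters. Slc2a1 encodes GLUT1, the transporter of most proliferating cells and of human red cells, and its intensity was 573 in Terc+/+ and 1540 in Terc-/-, a log2 difference of 1.55 or 2.94-fold after normalization. Of the 8781 genes detected on both arrays, 176, Slc2a1 included, differed by as much or more in that direction. Slc2a3 encodes GLUT3, a high-affinity transporter of neurons and leukocytes, and read 5359 and 11171, a difference of 0.89 that fell short of 2-fold. Both detected transporters were thus higher in the Terc-/- pool. The lactate and pyruvate carriers Slc16a1 and Slc16a3 gave no usable signal, with 1 and 3 probes.

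Hexokinase traps glucose in the cell as glucose 6-phosphate, and the detected isoenzymes differed unequally. Hk3, the form of myeloid cells, had 2280 in Terc+/+ and 6552 in Terc-/-, 2.66-fold higher. Hk1, the main form of red cells and brain, had 276 and 310, a log2 difference of 0.23. The within-array ratio of Hk3 to Hk1 therefore shifted 2.27-fold toward Hk3.

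Phosphofructokinase commits sugar to glycolysis, and its 3 subunit genes went apart. Pfkm, the subunit of muscle that red cells also use, had intensities of 7033 in Terc+/+ and 2804 in Terc-/-, 2.81-fold lower. Its other probes differed by -1.52 and -1.07, so all 3 Pfkm probes were lower in Terc-/-, although the dimmest was above background in Terc+/+ only. Pfkl, the liver-type subunit that leukocytes and red cells express, had 1036 and 1341, a difference of 0.31, and its second probe, above background in Terc-/- only, was at 0.90. Pfkp, the platelet-type subunit, had 298 and 426, a difference of 0.71, but a second probe, above background in Terc+/+ only, was at -0.05. The ratio of Pfkl to Pfkm shifted 3.48-fold and that of Pfkp to Pfkm 4.60-fold, both away from Pfkm. Aldolase followed neither pattern: Aldoa, the form of muscle and red cells, had 7920 and 9573, a difference of 0.11, and Aldoc, the brain form, had 179 and 213, a difference of 0.48.

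The later steps turn triose phosphates into pyruvate and pay back the ATP. Tpi1, triose phosphate isomerase, had 9007 and 11358, and its 3 probes lay between 0.10 and 0.17 on the log2 difference scale. Gapdh, glyceraldehyde phosphate dehydrogenase, often used as a reference gene, had 10209 and 16842, a difference of 0.52. Pgk1, phosphoglycerate kinase, the first enzyme of the pathway to make ATP, had 3297 and 7383, a difference of 1.03. The differences of these successive enzymes were thus unequal. Gapdh and several other glycolytic genes have processed copies in the mouse genome, and the probe sequences were not used here, so signal shared with a copy was not tested.

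Phosphoglycerate mutase gave the widest split of the 7 isoenzyme pairs compared. Pgam1, the form of most non-muscle cells, had 423 in Terc+/+ and 1002 in Terc-/-, 2.72-fold higher, and its second probe was higher as well, at 1.83. Pgam2, the muscle form, had 3366 and 1555, 2.51-fold lower. The ratio of Pgam1 to Pgam2 shifted by 2.77 on the log2 scale, or 6.82-fold.

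Pyruvate kinase, the last step, also differed by gene. Pkm, the gene of the muscle and leukocyte isoforms, had 6874 in Terc+/+ and 15619 in Terc-/-, a difference of 1.02, with a second probe at 0.91 that was above background in Terc-/- only. Pklr, the gene of the red-cell and liver enzyme, had 170 and 137 at its only probe above background, with detection p of 0.002 and 0.178. The signal exceeded background in the Terc+/+ pool alone, and the Terc-/- value was lower by at least 1.13-fold. Which of the Pkm splice forms the probes read was not tested.

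**Figure D2:**
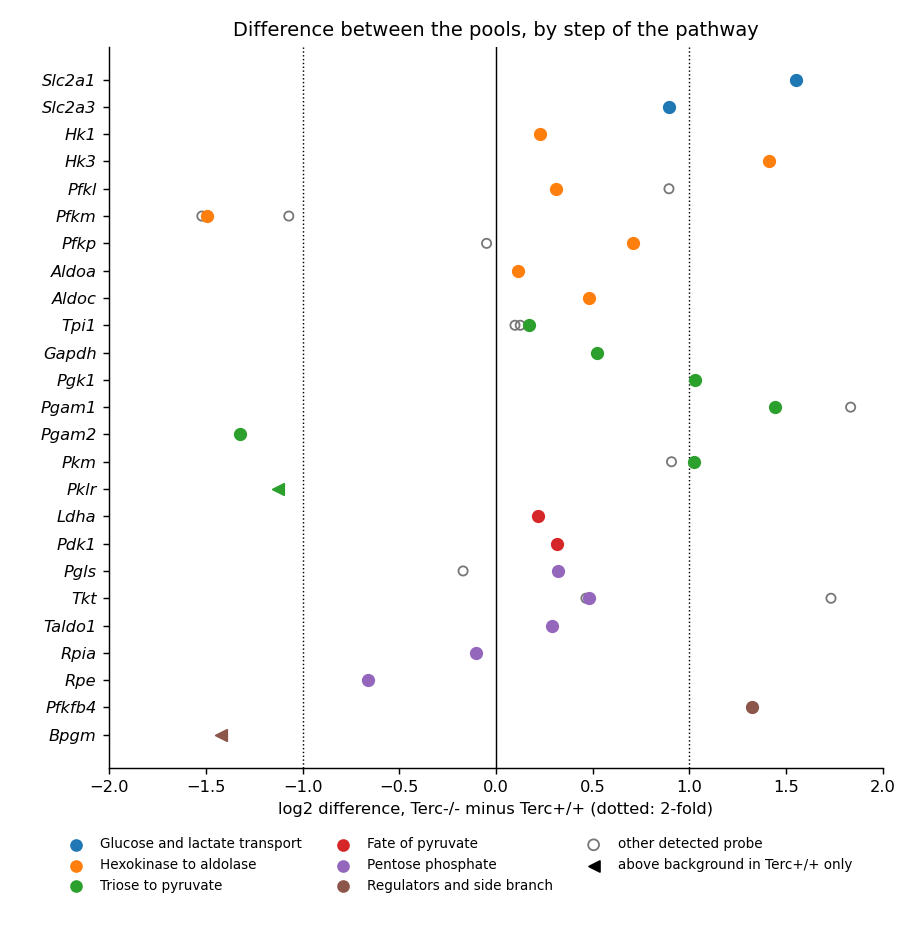
Log2 difference between the pools for each detected member, coloured by step of the pathway. Open circles are further detected probes of the same gene, triangles are genes above background in Terc+/+ only, and dotted lines mark 2-fold. Of 8 genes with more than 1 detected probe, all probes had the same sign for 6, the exceptions being Pfkp and Pgls, though some of these probes were above background on 1 array only.

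Past pyruvate the differences were small. Ldha, the lactate dehydrogenase subunit of muscle and glycolytic cells, had 10908 in Terc+/+ and 14403 in Terc-/-, a difference of 0.22. Pdk1, the kinase that shuts pyruvate dehydrogenase, had 403 and 484, a difference of 0.32. Neither reached 2-fold, and Ldhb had no signal above background.

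Genes of the pentose phosphate pathway had values on both sides of 0. Pgls, the lactonase of the oxidative branch, had 2132 and 2896, a difference of 0.32, with a second probe at -0.17. In the branch that rearranges sugars without oxidation, Taldo1, transaldolase, had 13178 and 18716, a difference of 0.29, and Tkt, transketolase, had 6091 and 9511, a difference of 0.48. Tkt had 2 further detected probes, at 1.73 and 0.47, the first of which was above background in Terc-/- only. The enzymes of ribose and xylulose phosphate lay on the other side of 0: Rpia, ribose phosphate isomerase, had 2104 and 2132, a normalized difference of -0.10, and Rpe, the epimerase, had 472 and 341, a difference of -0.66. All 5 detected pentose phosphate members lay within 2-fold, as did 81.8% of all detected genes, so the count shows nothing particular to them. The first and the third enzyme of the oxidative branch, G6pdx and Pgd, gave no value.

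Pfkfb4 was higher and Bpgm lower in Terc-/-, each by its only detected probe. Of the other regulators, Pfkfb3 was not above background, and Pfkfb2, outside the set, was at -0.40. Pfkfb4 makes and breaks fructose 2,6-bisphosphate, the strongest activator of phosphofructokinase, and had 1787 in Terc+/+ and 4828 in Terc-/-, 2.51-fold higher. Its second probe was not above background. Bpgm makes the 2,3-bisphosphoglycerate that lowers the oxygen affinity of haemoglobin, and had 185 and 137, with detection p of 0.001 and 0.184. The signal exceeded background in the Terc+/+ pool alone, which bounds the difference at 1.37-fold or more. The second Bpgm probe was not above background on either array. The normalized difference of Bpgm, -1.42, shrank to -0.48 with the deposited values.

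Isoenzymes were also grouped by the cells that use them, though several genes serve more than 1 cell type. All 7 detected leukocyte forms (Slc2a3, Hk3, Pfkl, Pfkp, Pgam1, Pkm and Pfkfb4) had values above 0, with a median of 1.02, and 4 of them were past 2-fold. For comparison, 5054 of all 9953 detected genes lay above 0, while 7.78% were past 2-fold upward and 10.4% downward. The leukocyte group also holds genes of wider use, such as Pgam1, the form of most non-muscle cells, so its count is not specific to leukocytes. Of 4 detected muscle forms, Pfkm and Pgam2 were at least 2-fold lower, while Aldoa and Ldha, which many other cells express, were at 0.11 and 0.22. Pkm, which encodes the muscle isoform as well and was grouped with leukocytes, was past 2-fold in the other direction, at 1.02. Of 7 detected red-cell forms, Pfkm, Pklr and Bpgm were lower by their normalized values, and Hk1, Pfkl and Aldoa lay between 0.11 and 0.31. Slc2a1, at 1.55, was counted there for its role in human red cells, on which adult mouse red cells do not rely. The list medians of the cell markers were 1.11 for neutrophils, -0.94 for skeletal muscle and -3.20 for red cells. Other leukocyte and platelet markers lay on the opposite side from the leukocyte forms: all 5 detected B-lymphocyte markers were below 0, with a median of -1.80, and so were all 6 of megakaryocytes and platelets, with a median of -1.48. These groups were formed with earlier results of the arrays known, so they describe the split and do not test it.

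**Figure D3:**
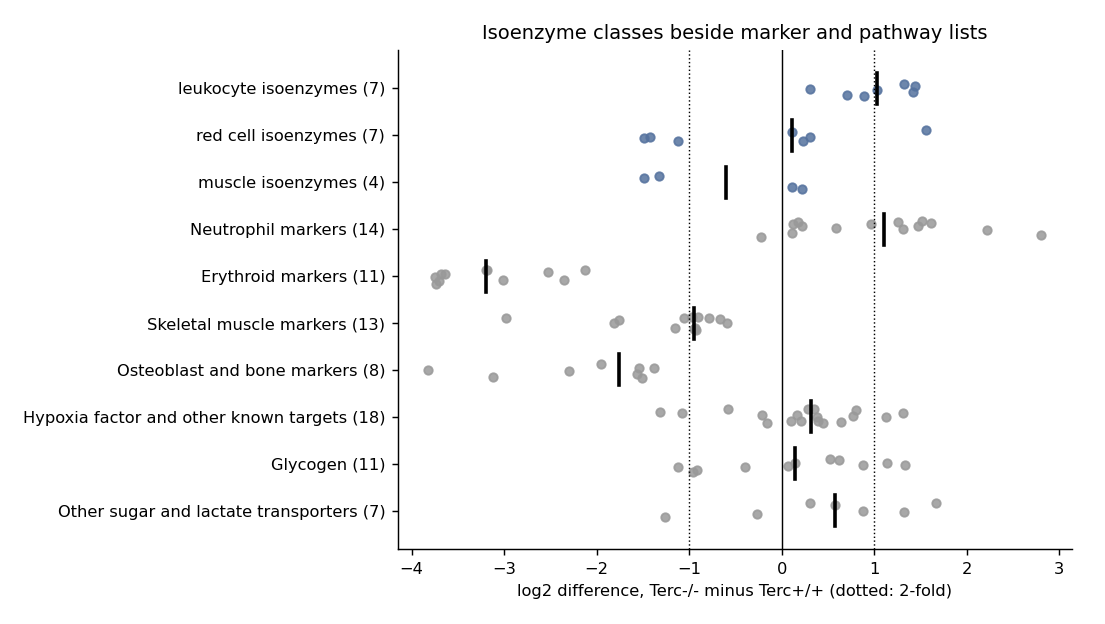
Log2 differences of the isoenzymes by the cells that use them (blue) and of marker and pathway genes (grey), 1 point per detected gene with the number of genes in brackets; black bars are medians and dotted lines mark 2-fold. The leukocyte forms lie on the side of the neutrophil markers, with medians of 1.02 and 1.11, and the red-cell and muscle forms spread over both sides of 0. Markers of B lymphocytes, also leukocytes, are not plotted and had a median of -1.80.

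Related isoforms outside the set were counted in further lists, to be read against the 7.78% of all detected genes at least 2-fold higher and the 10.4% lower. With 4 to 11 detected genes a list, nothing particular to a list is read from its counts. Eno3, the muscle enolase, had 5761 in Terc+/+ and 2517 in Terc-/-, a log2 difference of -1.38, and Slc2a4, the insulin-responsive transporter GLUT4 of muscle and fat, had 330 and 202, a difference of -1.26. On the other side were the sugar transporters Slc2a6, at 940 and 2974 or 1.67, and Slc2a9, which also carries urate, at 165 and 261 or 1.32. The Terc+/+ signal of Slc2a9 was dim, at a normalized log2 of 5.95 against 5.59 for the lowest detected probe. Of 7 detected further transporters 2 were at least 2-fold higher and 1 lower. Emb, embigin, a partner of lactate carriers, was at 0.88. Of 6 other detected glycolytic genes 2 passed 2-fold upward and 3 downward, or 2 downward by bounds. Adpgk, an ADP-dependent glucokinase, had 2923 and 8034, a difference of 1.36, Minpp1, an inositol polyphosphate phosphatase that can also act on bisphosphoglycerate, was at -1.66, and Ldhc, the testis form of lactate dehydrogenase, was at 1.02 with a second probe at 0.37. Eno1b, a close copy of Eno1 chosen after its values were seen, had 239 and 422, a difference of 1.22.

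Of 11 detected glycogen genes, 2 passed 2-fold upward and 1 downward. Pygl, the liver-type glycogen phosphorylase, had 7987 in Terc+/+ and 22349 in Terc-/-, a difference of 1.34, with a second probe at 1.66. Gyg, glycogenin, the primer of glycogen, was at 1.14. The subunits of muscle phosphorylase kinase were lower in value, Phkg1 at -1.12 and Phka1 at -0.96. Fbp1, the fructose bisphosphatase of liver, kidney and monocytes, had 158 and 338, a difference of 2.06. Its Terc+/+ signal was dim, at a normalized log2 of 5.79 against 5.59 for the lowest detected probe. The muscle form Fbp2 was at -0.42, G6pc3 at 0.45 and Pfkfb2 at -0.40, so 1 of 4 detected genes of that list passed 2-fold.

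**Figure D4:**
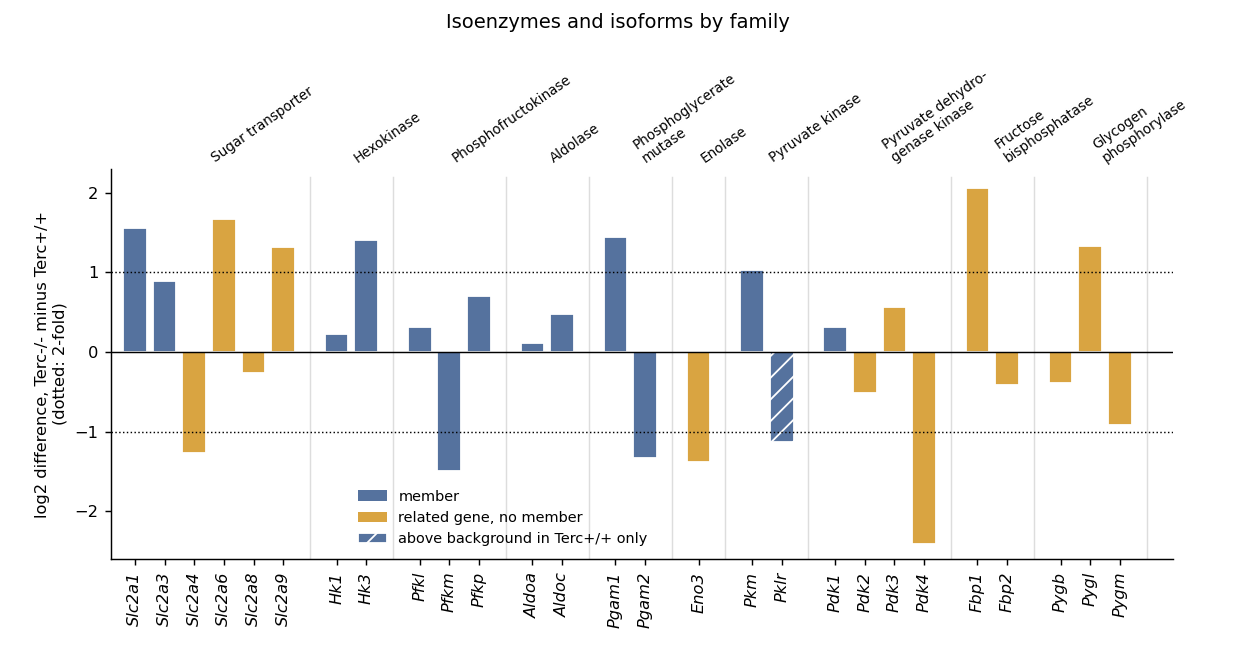
Log2 difference of each detected gene by enzyme or transporter family, members in blue and related genes in yellow; the hatched bar was above background in Terc+/+ only, and dotted lines mark 2-fold. In several families a muscle or red-cell form lies below 0 (Pfkm -1.49, Pgam2 -1.33, Slc2a4 -1.26) and another form above it (Pfkp 0.71, Pgam1 1.44, Slc2a6 1.67). Other forms grouped with red cells or muscle lie above 0 (Slc2a1 1.55, Pfkl 0.31, Hk1 0.23, Aldoa 0.11). A second Pfkp probe, not plotted, was at -0.05.

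Entry of pyruvate into mitochondria and the supply of NADPH were examined with further lists. Of 9 detected genes of pyruvate entry, 1 passed 2-fold: Pdk4, the pyruvate dehydrogenase kinase of fasting muscle and heart, at 754 in Terc+/+ and 232 in Terc-/-, a difference of -2.41. Pdk2 and Pdk3 were at -0.52 and 0.56, and Dlat, a core subunit of the dehydrogenase, at -0.63. Of 9 detected further pentose, NADPH and ribose genes, 1 was at least 2-fold higher: H6pd, the glucose 6-phosphate dehydrogenase of the endoplasmic reticulum, at 687 and 1391, a difference of 1.08. Idh1, a cytosolic NADPH source, was at 0.82, malic enzyme Me1 at -0.84 and ribokinase Rbks at 0.68.

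Many glycolytic genes are known targets of the hypoxia-inducible factors. A list of other known targets, which also holds factor subunits and their regulators, was set beside them. Its counts and median therefore do not describe targets alone. Among subunits and regulators, Hif1a was at 0.77, Arnt at 0.10, Vhl at 0.80, Hif1an at 0.20 and Egln2 at 0.35. Egln1, above background in Terc+/+ only, was at -0.58. Of 18 detected genes of that list, 13 had values above 0 and 5 below, against 5054 and 4891 of all detected genes. The median was 0.32, the same as that of the members to this precision, against 0.01 over all detected genes. In each direction 2 were past 2-fold, or 11.1%, near the 7.78% higher and 10.4% lower of all detected genes. Egln3, a prolyl hydroxylase that marks the factor for destruction, had 383 in Terc+/+ and 809 in Terc-/-, a difference of 1.31, and Ddit4, an inhibitor of mTORC1, was at 1.13. P4ha2, a collagen prolyl hydroxylase, was at -1.32, and Bnip3l, which clears mitochondria from maturing red cells, was at -1.08.

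The core of the sites these factors bind was looked for in the promoters, as ACGTG or GCGTG on either strand, in windows from 250 bases before to 50 bases after each start (RefSeq, GRCm38.p6). Of the 35 genes 34 had a window, Slc2a3 being the exception. ACGTG was in a window of 5 of the 6 members at least 2-fold higher, 1 of the 4 lower by normalized values, 5 of the 14 with a window that stayed within 2-fold and 21.8% of 27025 genes, and GCGTG was in 3, 1, 11 and 35.2% of them. Across all 34 members with a window, ACGTG was in 16, or 47.1%, and GCGTG in 21, or 61.8%. A gene counted if any of its windows matched, and the number of starts was not adjusted for. The members' 49 windows had a median GC content of 60% against 52.7% over all windows, and the part of base composition was not tested. The windows below are those of all 6 members at least 2-fold higher and of Pfkm and Pgam2, which were lower, at the most upstream start of each, 5′ to 3′ with matches in capitals. They lie at chr4:119108495-119108794 on the plus strand for Slc2a1, chr13:55021336-55021635 on the minus strand for Hk3, chrX:106186850-106187149 on the plus strand for Pgk1, chr19:41911621-41911920 on the plus strand for Pgam1, chr9:59656326-59656625 on the plus strand for Pkm, chr9:108991652-108991951 on the plus strand for Pfkfb4, chr15:98092339-98092638 on the plus strand for Pfkm and chr11:5803747-5804046 on the minus strand for Pgam2.
Slc2a1: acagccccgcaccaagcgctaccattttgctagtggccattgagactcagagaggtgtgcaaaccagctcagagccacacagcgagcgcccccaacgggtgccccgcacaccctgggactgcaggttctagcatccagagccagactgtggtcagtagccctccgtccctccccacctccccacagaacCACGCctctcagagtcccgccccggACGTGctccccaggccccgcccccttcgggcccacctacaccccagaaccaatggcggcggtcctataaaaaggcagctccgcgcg
Hk3: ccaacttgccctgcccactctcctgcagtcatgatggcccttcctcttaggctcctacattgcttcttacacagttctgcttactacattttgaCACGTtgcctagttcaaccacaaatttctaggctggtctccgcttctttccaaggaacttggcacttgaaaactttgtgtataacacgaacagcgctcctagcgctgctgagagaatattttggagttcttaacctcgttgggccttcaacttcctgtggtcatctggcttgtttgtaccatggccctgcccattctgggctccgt
Pgk1: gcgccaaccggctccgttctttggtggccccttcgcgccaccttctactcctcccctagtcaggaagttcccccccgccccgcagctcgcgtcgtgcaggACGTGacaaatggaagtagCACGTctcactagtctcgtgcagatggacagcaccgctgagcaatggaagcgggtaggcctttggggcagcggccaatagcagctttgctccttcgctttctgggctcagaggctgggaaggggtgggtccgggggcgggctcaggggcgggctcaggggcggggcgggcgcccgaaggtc
Pgam1: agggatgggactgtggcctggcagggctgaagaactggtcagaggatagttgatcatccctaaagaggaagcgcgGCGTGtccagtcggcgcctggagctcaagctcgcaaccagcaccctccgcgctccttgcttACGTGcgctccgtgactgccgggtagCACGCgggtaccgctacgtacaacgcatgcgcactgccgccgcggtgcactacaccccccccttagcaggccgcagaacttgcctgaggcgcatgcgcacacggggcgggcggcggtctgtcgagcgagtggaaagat
Pkm: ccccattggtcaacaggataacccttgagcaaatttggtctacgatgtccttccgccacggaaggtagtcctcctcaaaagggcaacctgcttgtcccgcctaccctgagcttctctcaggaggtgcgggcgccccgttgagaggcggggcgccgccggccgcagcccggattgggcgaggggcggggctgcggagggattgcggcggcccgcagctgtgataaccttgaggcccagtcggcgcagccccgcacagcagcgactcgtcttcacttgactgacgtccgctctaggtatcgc
Pfkfb4: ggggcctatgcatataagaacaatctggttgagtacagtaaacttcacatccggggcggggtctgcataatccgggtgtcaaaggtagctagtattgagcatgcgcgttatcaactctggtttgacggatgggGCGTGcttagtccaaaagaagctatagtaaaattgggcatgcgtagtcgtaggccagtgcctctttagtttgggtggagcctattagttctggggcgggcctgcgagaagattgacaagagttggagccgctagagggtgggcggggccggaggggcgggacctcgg
Pfkm: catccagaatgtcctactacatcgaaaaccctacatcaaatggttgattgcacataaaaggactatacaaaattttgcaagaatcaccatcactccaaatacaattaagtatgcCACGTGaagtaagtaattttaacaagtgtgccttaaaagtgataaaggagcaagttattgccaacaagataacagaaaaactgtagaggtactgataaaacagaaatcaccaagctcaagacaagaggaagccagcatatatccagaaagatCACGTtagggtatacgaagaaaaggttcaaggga
Pgam2: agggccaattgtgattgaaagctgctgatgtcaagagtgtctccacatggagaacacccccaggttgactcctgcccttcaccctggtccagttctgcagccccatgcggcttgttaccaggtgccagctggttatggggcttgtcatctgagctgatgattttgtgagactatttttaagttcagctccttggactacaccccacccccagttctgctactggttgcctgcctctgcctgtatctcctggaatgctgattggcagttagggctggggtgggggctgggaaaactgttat
The window of Pgk1 held ACGTG 2 times, those of Slc2a1, Hk3 and Pgam1 1 time each. That of Pfkfb4 held GCGTG only, and those of Pkm and Pgam2 neither word, so Pkm was counted with ACGTG through its second start. Pfkm, which was lower in Terc-/-, held 3 matches of ACGTG in the window shown, because the palindrome CACGTG counts on both strands. That window was 1 of 4 for Pfkm, and the others held 1, 0 and 0 matches of ACGTG. A match of letters is not a bound site, and no binding was measured.

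**Figure D5:**
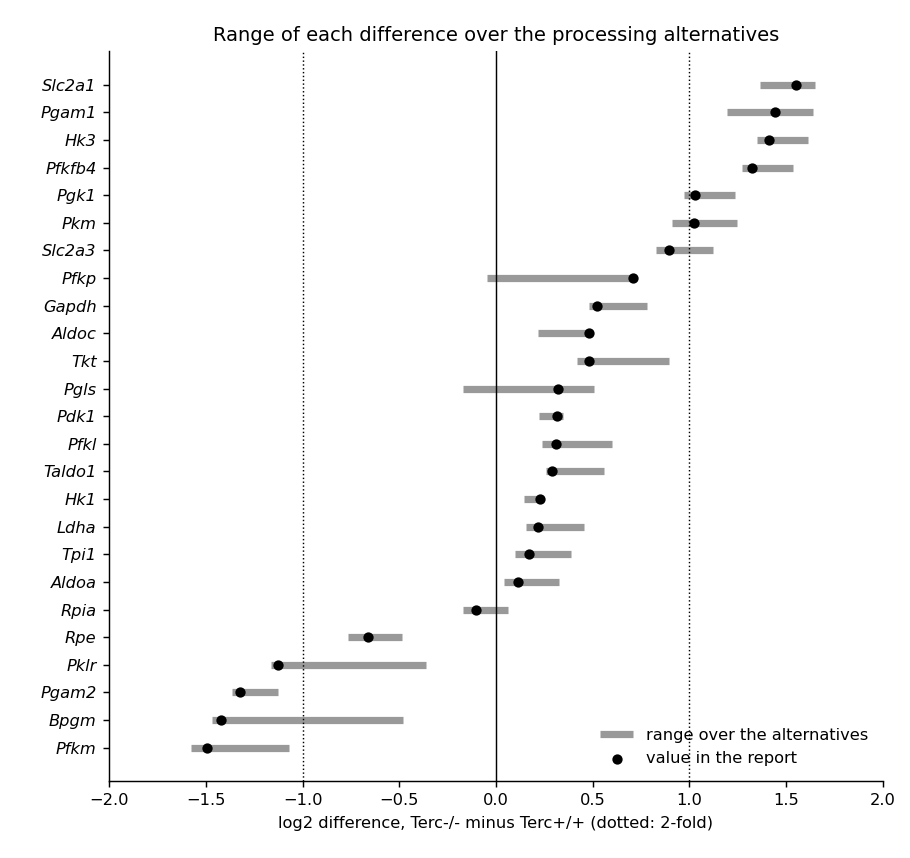
Log2 difference of each detected member as reported (black point) and its range over the processing alternatives (grey bar); dotted lines mark 2-fold. The bars of Slc2a1, Pgam1, Hk3 and Pfkfb4 stay above 2-fold and those of Pfkm and Pgam2 below it, while those of Pgk1, Pkm, Slc2a3, Pklr and Bpgm cross the line.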

How the data were processed

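Trizol-extracted total RNA was purified, DNase-treated and labelled as biotin cRNA, per the labels' protocols. The authors deposited a linear, non-normalized intensity and detection p-values of 45281 probes, per the file headers, with no value below 88.7, and a second table of intensities whose normalization is not given in the sources used here. That table kept the rank order of both arrays. Background was corrected by normexp with negative-control moments inferred from detection p (nec of limma 3.58.1, R 4.3.3, offset 16), followed by quantile normalization and log2. The platform annotation gave 34885 probes 1 symbol, 18 several and 10378 none here. The brightest probe stood for a gene. Bounds set the detected array against the dim array's lowest detected signal or the gene's own value there, whichever was higher. All detected members are named, with up to 4 genes detected on both arrays per further list. Members and lists were chosen with earlier results of these arrays known. The procedure was tested on simulated data in which only bright probes changed, equally often up and down. That test does not cover dim members or unequal shifts. Alternatives covered background, normalization, detection, probe choice and threshold.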

Additional observations from a re-analysis of the deposited data

How the results depend on the processing

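Of 248 member differences recomputed under alternatives, 232 kept their direction and side of 2-fold, 12 fell inside 2-fold, 1 passed it and 3 reversed: Pfkp at -0.049 and Pgls at -0.17 with the probe of smallest difference, and Rpia at 0.064 with median scaling. The cause of these was not tested, apart from the choice of probe. The count of members at least 2-fold higher was between 4 and 7 at that threshold, 8 at 1.5-fold and 0 at 3-fold, and the count lower was 5 at 1.5-fold and 0 at 3-fold. Over all genes 18% were higher and 20.5% lower at 1.5-fold, and 1.91% and 3.69% at 3-fold. At 2-fold the shares were 3.59% and 5.01% with no background correction and 3.65% and 5.19% with the deposited values. They were 5.12% and 7.41% with an offset of 50, and 7.29% and 8.95% with detection on both arrays. Cyclic loess gave 6.42% and 11.9%, and median scaling 8.79% and 10.2%. The mean of detected probes gave 7.73% and 9.74%, and the probe of smallest difference 6.83% and 8.8%. The count lower was 2 in place of 4 with no background correction, an offset of 50, the deposited normalized values, detection on both arrays or bounds, the genes lost being Pklr and Bpgm, which are dim. Pgk1 was at 0.97 with cyclic loess and with the deposited values, and Pkm at 0.91 with its probe of smallest difference, just inside 2-fold. The median of members was 0.45 with median scaling. No paired analysis was possible because there was 1 array per genotype, which also leaves no array to omit.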
